A study of Mus musculus with 8 samples.

Results

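The naive pluripotency transcription factors are the regulators that mark embryonic stem (ES) cells in the state of the preimplantation epiblast. The group described here holds 9 genes, *Klf2*, *Klf4*, *Klf5*, *Esrrb*, *Tbx3*, *Zfp42*, *Prdm14*, *Nr0b1* and *Dppa3*, chosen by name from the 36406 gene names on the arrays, and each of the 9 was read by 1 probe. The cells were E14Tg2A.4 mouse ES cells. They were either untreated (4 arrays) or treated for 72 h with 1 µM all-trans retinoic acid (RA), which was added in medium lacking leukemia inhibitory factor (LIF, 4 arrays), so the effect of RA and that of LIF withdrawal cannot be told apart. The medium of the untreated cells is not given in the sources used here. Total RNA of each culture was labelled with Cy3 and hybridized to a 1-colour Agilent array with probes of 60 bases.

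In the naive state a core of Oct4, Sox2 and Nanog is surrounded by factors that feed on different signals. LIF acts through Stat3 on *Klf4* and through other kinases on *Tbx3*, relief of Tcf3 repression by Wnt signalling raises *Esrrb*, and *Klf2* is held back by Mek and Erk. The network comes apart when cells leave self-renewal, and *Zfp42* (Rex1) is the usual reporter of that exit.

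The exon or untranslated region that each probe reads was not determined here. The probe of *Klf5* is printed whole because its 60 bases map to chr14:99702656-99712388 on mm9, a span of 9733 bases, so that it joins sequence from either side of an intron. The probes of *Dppa3* and *Esrrb* are shown by a window of 30 bases that holds the hexamer AATAAA, in capitals, the letters of the common signal for polyadenylation. 
Klf5: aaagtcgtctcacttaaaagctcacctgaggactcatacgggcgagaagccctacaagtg
Dppa3: ccagggctgaggAATAAAgtaaatagaatt
Esrrb: catgtatctgaaatctAATAAAtaaggaaa
The other 6 probes held no such hexamer. On mm9 the 60 bases of *Dppa3* lie at chr6:122580207-122580266 and those of *Esrrb* at chr12:87862509-87862568. *Nr0b1* was printed as 10 spots on each array, and the other genes as 1.

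All 9 genes fell after RA treatment. They were well above background on all 8 arrays, none of their spots was saturated or marked as an outlier, and for each of them all 4 RA-treated arrays lay below all 4 untreated arrays. The falls ran from 2.06-fold for *Tbx3* to 70.7-fold for *Nr0b1*, with a median log2 change of -5.17. The median was -4.22 with normexp background correction and an offset of 50, and -4.09 with the authors' processed log2 values. Levels are given as log2 intensity relative to the 75th percentile of the same array, so that 0 is a bright spot, and they are compared between conditions and not between genes. A gene was called lower or higher at a Benjamini-Hochberg adjusted p under 0.05 over all 55681 probes (limma) and a change of more than 1.5-fold, the limits that the study states. By this rule 21.6% of all probes were lower and 12.9% were higher after RA. Among the 29812 probes that passed the background on each of the 4 untreated arrays, 32.2% were lower. Over the 55640 probes measured on every array, 23.8% had all RA-treated arrays below all untreated arrays. The median log2 change of all probes was -0.28 at this scaling. With quantile normalization it was -0.0026, 15.6% of the probes were lower and 14.6% were higher. In RNA from whole cultures, fewer naive cells and less RNA per cell cannot be told apart.

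**Figure D1:**
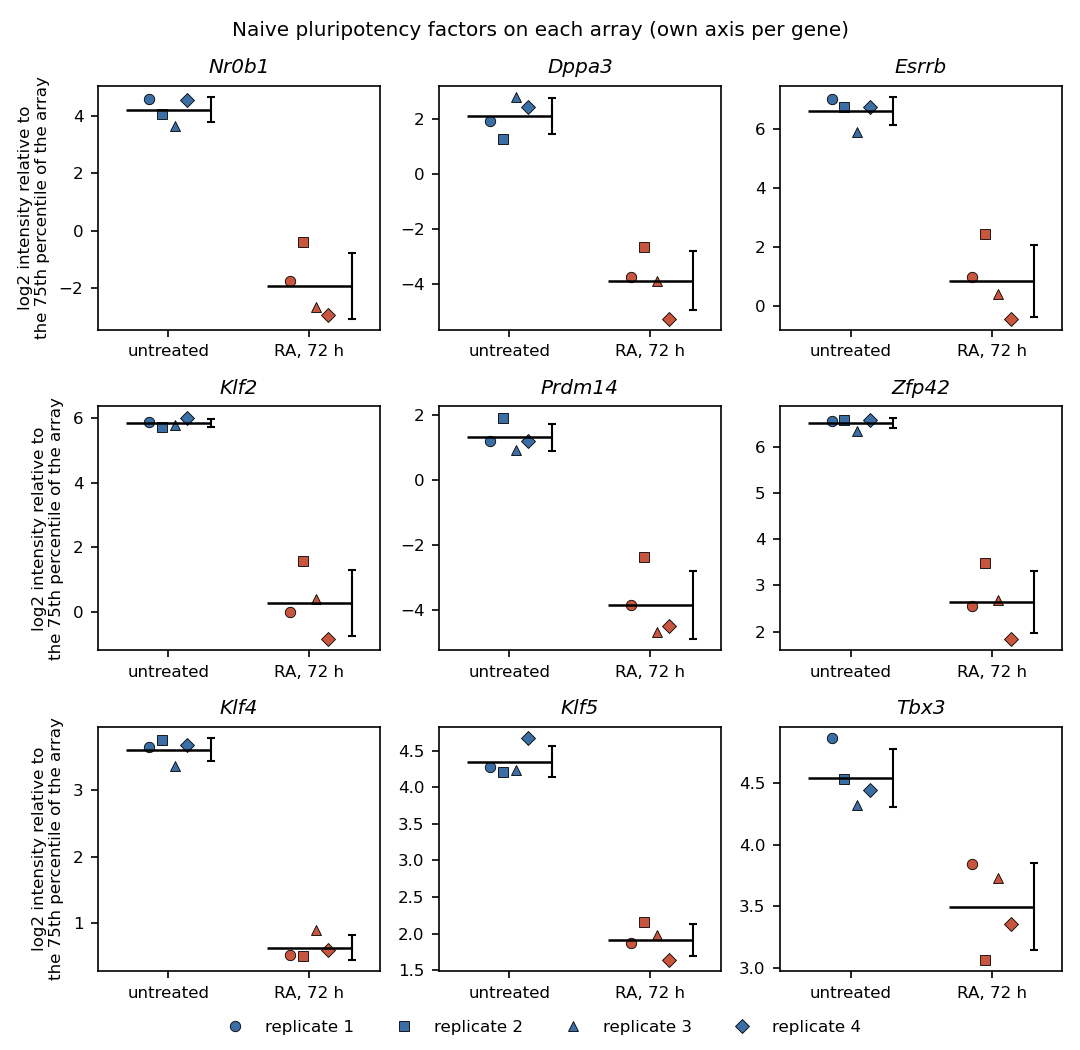
Log2 intensity of the 9 naive factors, with each array's 75th percentile set to 0 (vertical axes, a separate one for each gene) on the 4 untreated (blue) and 4 RA-treated (red) arrays. Marker shapes give the replicate number, horizontal lines the mean and bars the SD. The conditions do not overlap for any gene, and the gap between them is widest for *Klf2* (4.14) and narrowest for *Tbx3* (0.47).

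The Krüppel-like factors Klf2, Klf4 and Klf5 are zinc finger proteins that bind the same GC-rich motifs and can stand in for each other in ES cells. *Klf2* was at 5.90, 5.73, 5.81 and 6.03 on the untreated arrays (replicates 1 to 4) and at -0.014, 1.59, 0.41 and -0.85 after RA. The untreated arrays lay within 0.30 of each other, while the RA-treated arrays spread over 2.44, with replicate 2 highest and replicate 4 lowest. The change was -5.58 (SE 0.44, n = 4 per condition), a 47.9-fold fall with a 95% interval from 23.9 to 96.0 and an adjusted p of 2.59e-05 in limma. Within the slides, each of which held 2 arrays of either condition, it was -6.29 on slide 1 and -4.88 on slide 2. Slide 1 held untreated replicates 1 and 3 and treated replicates 1 and 4, and slide 2 held the others. The lowest and the highest treated array thus lay on different slides, so the slide values are not separate from that spread.

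*Klf4*, one of the reprogramming factors and a target of Stat3, was at 3.66, 3.76, 3.37 and 3.68 untreated and at 0.52, 0.50, 0.89 and 0.58 after RA. Both conditions were tight, with SDs of 0.17 and 0.19, and the array that was highest after RA, replicate 3, was the one that was lowest in untreated cells. It fell by 3.00 on the log2 scale (SE 0.16), 7.98-fold, and had the lowest adjusted p of the 9 (4.30e-06, limma).

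*Klf5*, which also acts in the trophectoderm and in gut epithelium, was at 4.27, 4.21, 4.24 and 4.67 untreated and at 1.87, 2.16, 1.99 and 1.64 after RA. Untreated replicate 4 stood above the other 3 and was the lowest after RA. The change was -2.44 (SE 0.17), a 5.41-fold fall with an adjusted p of 1.51e-05 in limma.

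The falls of the 3 Klf genes differed from each other. The differences were measured within each array, which removes the scaling, and compared with an exact two-sided permutation test over the 70 ways to split the 8 arrays, whose smallest p is 0.0286. *Klf2* fell by 2.59 more than *Klf4* (SE 0.54) and by 3.15 more than *Klf5* (SE 0.41), and *Klf4* by 0.56 more than *Klf5* (SE 0.19). Each had an exact p of 0.0286 and an adjusted p of 0.0396 over the 36 pairs of naive factors. This test does not use the replicate numbers. Taken as pairs by number, each difference had the same sign in all 4 and an exact sign-flip p of 0.125, the smallest possible.

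Esrrb is an orphan nuclear receptor that binds DNA beside Oct4 and Nanog, and Nr0b1 (Dax1) is a receptor-like protein without a classical DNA-binding domain that acts as a corepressor. *Esrrb* was at 7.01, 6.75, 5.92 and 6.74 untreated and at 1.00, 2.44, 0.40 and -0.43 after RA. Replicate 3 was lowest in untreated cells, and replicate 2 was highest after RA. The change was -5.75 (SE 0.55), 53.9-fold, with an adjusted p of 6.77e-05 in limma.

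*Nr0b1* was at 4.59, 4.08, 3.66 and 4.54 untreated and at -1.74, -0.39, -2.65 and -2.92 after RA. Its 10 spots put a number on the reading error within an array, an SD between 0.035 and 0.10, against an SD between arrays of 0.44 untreated and 1.14 after RA. The change was -6.14 (SE 0.52), a 70.7-fold fall with a 95% interval from 31.2 to 160.2 and an adjusted p of 3.54e-05 in limma. On the linear scale 1.41% of the untreated level was left. Only 0.10% of all probes fell by more. As in *Esrrb*, treated replicate 2 was highest and replicate 4 lowest.

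Prdm14, a zinc finger protein that recruits corepressors, and Dppa3 (Stella), which shields DNA methylation in the zygote, are both used again in primordial germ cells. *Prdm14* was at 1.19, 1.93, 0.93 and 1.22 untreated and at -3.86, -2.37, -4.70 and -4.50 after RA. Replicate 2 was the highest array of both conditions. The change was -5.17 (SE 0.49), a 36.1-fold fall with an adjusted p of 6.14e-05 in limma.

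*Dppa3* was at 1.92, 1.27, 2.79 and 2.43 untreated and at -3.74, -2.66, -3.91 and -5.28 after RA. It had the largest untreated spread of the 9, an SD of 0.66, and was the only one for which untreated replicate 3 was highest. The change was -6.00 (SE 0.54), a 63.9-fold fall with an adjusted p of 4.74e-05 in limma. It was -6.86 within slide 1, which held treated replicate 4, the lowest, and -5.13 within slide 2, which held treated replicate 2, the highest. The gene has near-identical processed copies elsewhere in the genome, and whether they add to its probe was not tested. Both genes were dim after RA, with processed intensities of 37.3 to 184 for *Prdm14* and 26.6 to 151 for *Dppa3*. Their fold depended on the processing. With normexp and an offset of 50 it was 18.7-fold for *Prdm14* and 27.5-fold for *Dppa3*, and with the log2 values the authors had processed it was 17.0-fold and 24.6-fold.

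*Zfp42*, a relative of the zinc finger gene *Yy1*, was at 6.56, 6.58, 6.34 and 6.58 untreated and at 2.56, 3.49, 2.68 and 1.83 after RA. The untreated arrays were the tightest of the 9 genes (SD 0.12), and treated replicates 2 and 4 marked the upper and lower ends again. The change was -3.88 (SE 0.31), 14.7-fold, with an adjusted p of 2.65e-05 in limma, and 6.81% of the untreated level was left.

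*Tbx3*, a T-box factor that also acts in heart and limb, was at 4.86, 4.53, 4.32 and 4.44 untreated and at 3.84, 3.06, 3.73 and 3.36 after RA. The lowest untreated array was 0.47 above the highest treated one. The change was -1.04 (SE 0.21), a 2.06-fold fall with a 95% interval from 1.47 to 2.87 and an adjusted p of 0.00436 in limma, and 48.6% of the untreated level was left. Of all probes, 15.6% fell by more. The fall was -0.86 with quantile normalization (adjusted p 0.00844, limma). Within slide 1 it was -0.99 with an adjusted p of 0.113 in limma, and within slide 2 it was -1.09 with an adjusted p of 0.0791, and a limma test against 1.5-fold rather than against 0 gave an adjusted p of 0.139.

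**Figure D2:**
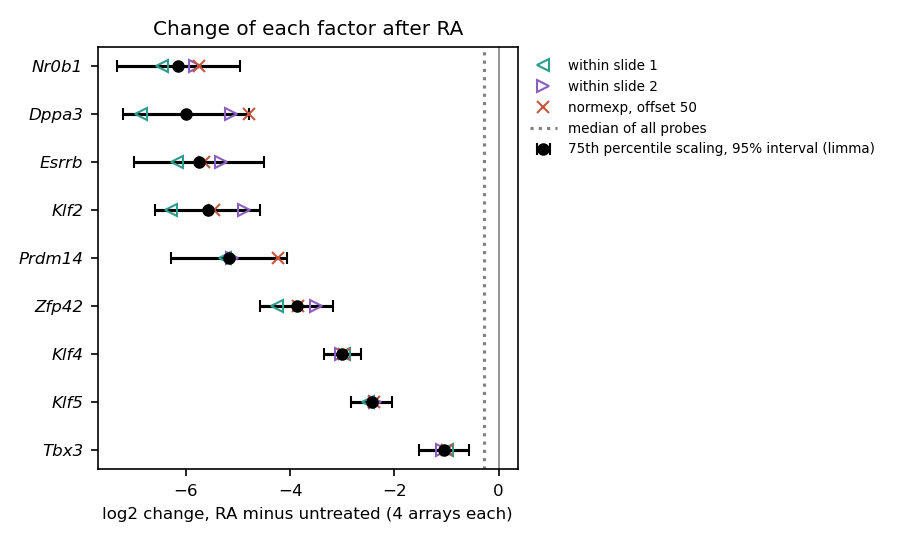
Log2 change of each naive factor, RA-treated minus untreated (horizontal axis), with the 95% interval of limma (black), the values within slides 1 and 2 (open triangles) and the value after normexp with an offset of 50 (crosses). The dotted line is the median of all probes at -0.28. *Nr0b1*, *Dppa3*, *Esrrb*, *Klf2* and *Prdm14* lie at -5.17 or below, *Tbx3* at -1.04, and the crosses stand apart from the black points for *Dppa3* and *Prdm14*.

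The 9 factors fell by different amounts. By size of the fall the order was *Nr0b1*, *Dppa3*, *Esrrb*, *Klf2*, *Prdm14*, *Zfp42*, *Klf4*, *Klf5* and *Tbx3*. The falls of 26 of the 36 pairs differed at an adjusted p of 0.0396 (exact permutation test). Among the first 5 genes 1 of 10 pairs differed, *Nr0b1* falling by 0.97 more than *Prdm14* (SE 0.32), and neighbours in the order were within 0.15 to 0.41 of each other with unpaired SEs of 0.32 to 0.55. With normexp and an offset of 50 *Esrrb* and *Prdm14* differed as well, by 1.42 (adjusted p 0.0411, exact permutation test), against 0.58 here, as they did with the authors' values. All 20 pairs of 1 of these genes with 1 of the other 4 differed, a split made after the values were seen. *Prdm14* fell by 1.30 more than *Zfp42* (SE 0.37), but by only 0.37 more with normexp and an offset of 50 (adjusted p 0.199, exact permutation test) and 0.39 more with the authors' values (adjusted p 0.289, exact permutation test). With either, *Dppa3* and *Zfp42* did not differ (adjusted p 0.114, exact permutation test), and 18 of the 20 pairs did. *Zfp42* and *Klf4* were 0.88 apart (SE 0.36), which did not pass (adjusted p 0.184, exact permutation test). *Klf5* fell by 1.40 more than *Tbx3* (SE 0.29, adjusted p 0.0396, exact permutation test). The test over 70 splits does not use the replicate numbers. Taken as pairs, the 4 differences within a number allow no exact p below 0.125, so no pair could pass. They had the same sign in all 4 for 29 of the 36 pairs, namely the 26 and 3 that had not passed, *Klf2* with *Esrrb*, *Klf2* with *Nr0b1* and *Esrrb* with *Nr0b1*. The falls of *Esrrb* and *Klf2* were 0.17 apart with a paired SE of 0.044. For *Klf4* against *Klf5* they were -0.74, -1.21, -0.22 and -0.076 (paired SE 0.26). The first 5 changed places between the settings tried, while *Zfp42*, *Klf4*, *Klf5* and *Tbx3* came in this order in all of them.

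The treated arrays differed from each other in the naive factors more than untreated arrays did. The median SD of the 9 genes was 0.23 untreated and 1.02 after RA. Over the 27493 probes with a value from all 8 arrays that were well above background on each, it went the other way, from 0.28 to 0.19. Over the 2618 probes that were well above background in untreated cells and were called lower by at least 4-fold, it was 0.43 and 0.52. Among the 9, the wide spread belonged to *Nr0b1*, *Dppa3*, *Esrrb*, *Klf2*, *Prdm14* and *Zfp42*, with SDs of 0.68 to 1.21 after RA, and not to *Klf4*, *Klf5* and *Tbx3*, with SDs of 0.19 to 0.36. It was not particular to them. *Pou5f1* went from 0.30 untreated to 1.42 after RA, *Nanog* from 0.32 to 1.16 and *Otx2* from 0.56 to 1.93. Of the other ES cell and formative factors listed below, *Sall4*, *Stat3*, *Tfe3*, *Zic2*, *Sox3*, *Sall2* and *Grhl2* spread less after RA, and the rest spread more.

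Treated replicates 2 and 4 stood at the ends for most of the 9 genes. Treated replicate 2 was the highest for 7 of the 9 genes and stood at a median of 1.65 above the mean of the other 3 treated arrays. For *Klf4* and *Tbx3* it was the lowest. Treated replicate 4 was the lowest for 6 genes, at a median of -1.08. The 2618 strongly lower probes leaned the same way by less, with medians of 0.54 for replicate 2 and -0.42 for replicate 4, and 82.6% and 18.9% of them lay above the mean of the other 3 treated arrays. Of the other ES cell factors listed below, all but *Gbx2*, *Stat3* and *Tfe3* were highest in treated replicate 2, and so were all formative factors but *Grhl2*. The summed linear level of 6 ES cell markers (*Pou5f1*, *Nanog*, *Sox2*, *Utf1*, *Tdgf1* and *Dppa5a*) was 64.1, 108, 40.2 and 41.1 times the 75th percentile on treated replicates 1 to 4, against 353 to 488 in untreated cells. *Dppa5a* made up 79.6% to 85.5% of it after RA, and without that gene the sum was 9.56, 22.0, 7.26 and 5.94, against 177 to 230. That of 9 RA response genes was 114, 126, 230 and 203, against 8.16 to 13.8. *Crabp2* made up 40.7% to 68.0% of it after RA, and without that gene the sum was 42.4, 40.5, 136 and 103, against 4.25 to 7.33. The part of these differences in the spread of the naive factors was not tested. Leaving out any 1 array moved no member's fold by more than 1.44 times, and all 9 were called lower each time.

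**Figure D3:**
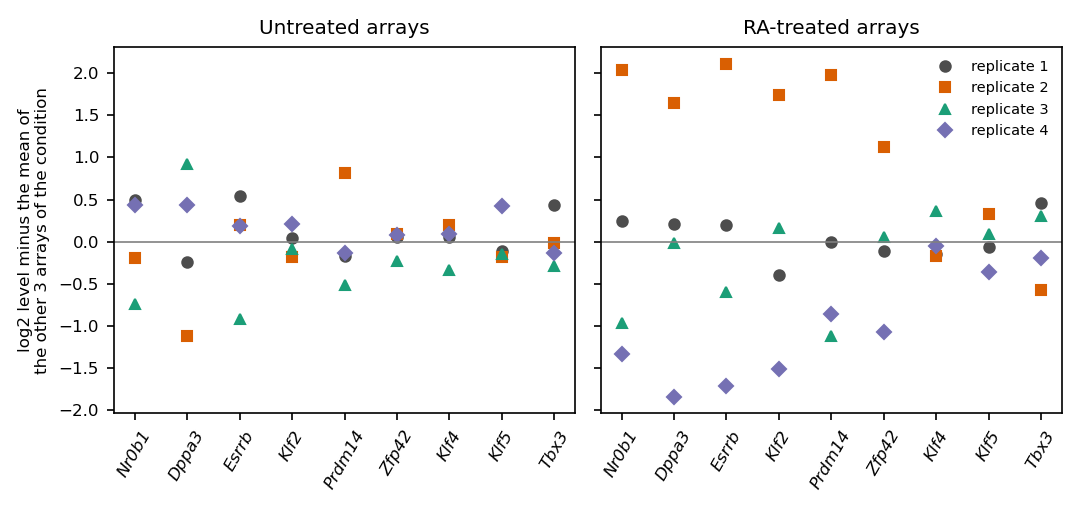
Log2 level of each naive factor on an array minus its mean on the other 3 arrays of the same condition (vertical axis), for untreated (left) and RA-treated (right) arrays, with 1 marker shape and colour per replicate number. Treated replicate 2 lies above the others for 7 of 9 genes, by 2.11 for *Esrrb*, and below them for *Klf4* and *Tbx3*.

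RefSeq promoters on GRCm38.p6 were at hand for 5 of the 9 genes, in 6 windows since *Esrrb* has a pair of them. The 250 bases before the start site were searched on both strands for the octamer ATTTGCAT of Oct4, the Esrrb half-site AAGGTCA, the Klf box GGGTGTGG, the Stat palindrome TTCNNNGAA and the GC box GGGCGGG. Those of *Zfp42*, *Klf2* and *Klf4* are printed, with each match in capitals, because *Zfp42* alone held the octamer and the Klf pair fell by different amounts. They lie at chr8:43307010-43307259 (minus strand), chr8:72318812-72319061 (plus strand) and chr4:55532476-55532725 (minus strand). 
Zfp42: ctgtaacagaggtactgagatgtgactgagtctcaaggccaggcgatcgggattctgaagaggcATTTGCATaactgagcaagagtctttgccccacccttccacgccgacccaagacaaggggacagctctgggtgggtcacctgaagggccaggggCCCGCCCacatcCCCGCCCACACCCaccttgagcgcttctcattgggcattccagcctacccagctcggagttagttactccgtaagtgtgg
Klf2: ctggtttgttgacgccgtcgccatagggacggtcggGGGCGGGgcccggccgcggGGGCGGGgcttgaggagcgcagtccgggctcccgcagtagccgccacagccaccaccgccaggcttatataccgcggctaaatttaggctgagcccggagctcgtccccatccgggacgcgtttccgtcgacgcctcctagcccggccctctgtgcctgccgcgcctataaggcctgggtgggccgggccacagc
Klf4: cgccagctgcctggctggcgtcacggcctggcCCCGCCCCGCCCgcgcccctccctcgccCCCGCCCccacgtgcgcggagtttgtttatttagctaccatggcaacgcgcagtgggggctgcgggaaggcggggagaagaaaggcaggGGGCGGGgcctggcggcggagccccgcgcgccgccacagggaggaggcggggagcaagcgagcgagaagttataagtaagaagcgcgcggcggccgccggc
The octamer of *Zfp42* begins 186 bases before the start site, and 1.60% of the 32851 promoters in the table hold one in a window of this length. Its Klf box, found in 3.20% of promoters, begins 75 bases before the start and shares letters with the second of 2 GC boxes. *Klf2* held 2 GC boxes and *Klf4* held 4, of which the first 2 overlap, against 23.4% of promoters with at least 1. One *Esrrb* window held the Stat palindrome, as TTCGTGGAA at 178 bases before the start, a motif of 7.02% of promoters. The Esrrb half-site, in 4.08% of promoters, was in none of the 6 windows, and the *Nr0b1* window held none of the 5 motifs. The windows had a GC content of 52.0% to 74.0%, where the median promoter had 52.4%. These matches describe letters and were not tested against the changes.

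The other transcription factors of the ES cell network fell as well. All 9 that were listed (*Pou5f1*, *Nanog*, *Sox2*, *Nr5a2*, *Tfcp2l1*, *Gbx2*, *Sall4*, *Stat3* and *Tfe3*) were lower, with a median log2 change of -2.58 against -0.28 for all probes. Beside the counts of this and the lists below, 21.6% of all probes were lower and 12.9% were higher. *Pou5f1* (Oct4) changed by -5.54 (SE 0.61, adjusted p 0.000152, limma), *Nr5a2*, a nuclear receptor that acts on *Pou5f1*, by -4.57 and *Nanog* by -4.55.

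Factors of the formative and primed epiblast, which naive cells pass through when they differentiate, were mostly lower too. Of 14, 10 were lower and 1 was higher, with a median of -3.51. *Otx2* changed by -6.49 (SE 0.84), *Foxd3* by -5.92, with 2 of 4 treated arrays well above background, and *Etv4* by -4.88. *Sall2* rose by 2.38. *Sox3* (0.51) and *Lef1* (0.042) were not called.

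Of the LIF pathway, which feeds *Klf4* and *Tbx3*, 4 of 9 genes were lower and 2 were higher, with a median of -0.22. The lower genes were Stat3 itself and its targets. *Socs3*, the feedback inhibitor, changed by -2.59 (SE 0.15, adjusted p 6.42e-06, limma), *Pim3* by -1.77 and *Pim1* by -1.61. The kinases *Jak2* and *Jak1* rose by 2.25 and 1.18. The receptor genes *Lifr* (-0.10) and *Il6st* (-0.22) and *Lif* (-0.050) were not called.

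**Figure D4:**
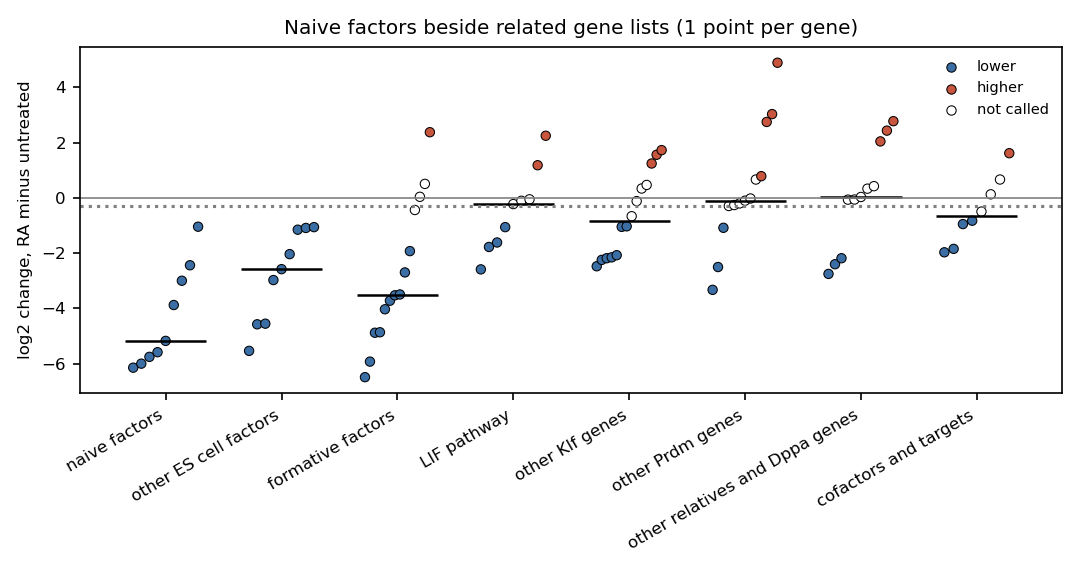
Log2 change, RA-treated minus untreated (vertical axis), of each gene in the naive group and in 7 related lists, 1 point per gene. Blue points were called lower, red points higher and white points neither, black lines are list medians, and the dotted line is the median of all probes at -0.28. Points of genes at background on at least 3 of 4 arrays of a condition (*Prdm6*, *Prdm8*, *Prdm12*, *Tbx5*, *Esrrg*, *Nr0b2*, *Klf1* and *Klf17*) are fitted values and no measured size. All points of the naive factors and of the other ES cell factors are blue.

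The relatives of the naive factors moved in both directions, where 21.6% of all probes were lower and 12.9% were higher. The share of lower genes among the Prdm genes and the last 11 relatives was near that of all probes. Of 14 other Klf genes 7 were lower and 3 were higher, with a median of -0.84. *Klf8* changed by -2.47 and *Klf9* by -2.18, and *Klf17* was called lower, with no measured size because only 1 of 4 treated arrays was well above background. *Klf14* rose by 1.73, *Klf6* by 1.56 and *Klf3* by 1.25. *Klf7* (0.34) and *Klf13* (-0.12) were not called.

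Of 13 other Prdm genes 3 were lower and 4 were higher, with a median of -0.098. *Prdm11* changed by -3.33 and *Prdm1* (Blimp1), a partner of Prdm14 in germ cells, by -2.50. *Prdm6* was not well above background in untreated cells and at least 23.7-fold higher after RA. *Prdm8* and *Prdm12* were called higher, with no measured size because only 1 of 4 untreated arrays was well above background for each.

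Another 11 genes were relatives of the remaining members or, for *Dppa2*, *Dppa4* and *Dppa5a*, shared the name of *Dppa3* without being of its protein family. Of these 3 were lower, all of them Dppa genes, and 3 were higher, with a median of 0.036, or of 0.14 without *Nr0b2*, which was below background on all arrays, and with *Tbx5* at its bound. *Dppa2* changed by -2.75, *Dppa4* by -2.40 and *Dppa5a* by -2.18. *Tbx2*, the closest relative of *Tbx3*, rose by 2.78 (SE 0.53, adjusted p 0.00317, limma), with 3 of 4 untreated arrays well above background. *Tbx5* was at least 2.81-fold higher, and *Esrrg* was called higher, with no measured size because only 1 of 4 untreated arrays was well above background. *Esrra* (-0.057) and *Yy1* (-0.061) were not called.

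Of 8 known cofactors and targets of Prdm14, Dppa3 and Esrrb, 4 were lower and 1 was higher, with a median of -0.66. The DNA methyltransferase genes *Dnmt3l* and *Dnmt3b*, which Prdm14 represses, changed by -1.97 and -1.84, and *Cbfa2t2*, its corepressor, by -0.95 (SE 0.18). *Fgfr2*, another repressed gene, rose by 1.62. *Fgfr1* (0.13), *Dnmt3a* (0.67) and *Uhrf1* (-0.49) were not called.

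Markers of other cell types moved with the condition. All 9 RA response genes were higher, with a median of 3.94, among them *Rarb* (7.21), *Hoxb1*, which was at least 29.8-fold higher, and *Cyp26a1*, the enzyme that breaks down RA (6.09). All 6 ES cell markers fell, with a median of -4.71, led by *Tdgf1* (-6.30), *Pou5f1* and *Utf1* (-4.86). All 6 primitive endoderm markers rose, led by *Dab2* (3.82), *Gata6* (3.28) and *Sox17* (3.05), and their summed level went from 0.864 to 1.95 untreated to 8.14 to 11.8 after RA. Of 6 fibroblast markers 5 rose, *Dcn* by 8.07 and *Col1a2* by 6.49, and *Lum* was at least 21.1-fold higher. Their sum was 1.13 to 1.98 untreated and 27.3 to 47.5 after RA. Of 7 trophoblast markers 5 rose, among them *Krt7* (5.84), *Hand1* (4.35) and *Gata3* (4.33), and *Tfap2c* fell by 2.26, and the sums were 20.9 to 29.7 and 22.3 to 29.7. *Tfap2c* made up at least 94.9% of the untreated sum, and the other 6 markers went from 0.805 to 1.31 to 18.5 to 23.3. RNA from whole cultures does not show whether such cells were present. Their presence and any part of theirs in the falls of the naive factors were not tested.

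Germ cell markers were set beside *Prdm14* and *Dppa3*. Of 6, 4 were lower (*Prdm1*, *Tfap2c*, *Nanos3* and *Kit*) and *Ddx4* was higher, by 1.82. *Nanos3* changed by -1.90. The summed level was 30.2 to 39.3 untreated and 9.01 to 15.6 after RA. *Tfap2c* made up 66.4% to 73.4% of the untreated sum, and the other 5 genes went from 10.1 to 11.1 to 6.61 to 7.75.

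Genes of 2-cell-like cells, a rare state in ES cell cultures in which *Zscan4* genes are on, differed widely between untreated cultures. The sum over the 4 genes on the array was 9.43, 47.3, 108 and 5.49 in untreated replicates 1 to 4 and 64.9, 72.2, 82.4 and 27.8 after RA. None of the 4 was called. Untreated replicate 3 was the highest for this sum and for *Dppa3*, and the lowest for 6 of the other naive factors. Replicate 2, the next in the sum, was the lowest for *Dppa3*.

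The genes most like the naive factors were ranked by Pearson's r over the 8 arrays with the mean profile of the 9, each gene scaled to the same SD, among 16461 probes with a gene symbol that were well above background on all arrays. The first 5 were *Nr5a2* (0.999), *L1td1* (0.998), *Kndc1* (0.998), *Ascc2* (0.998) and *Ankrd35* (0.998). The measure mostly reads the difference between the 2 conditions, and 182 probes were above 0.99. *L1td1*, an RNA-binding protein gene of ES cells, was at 7.66, 7.23, 7.01 and 7.43 untreated and at 3.08, 3.89, 3.21 and 2.38 after RA. Like most naive factors it was highest in replicate 2 and lowest in replicate 4 of the treated arrays. *Ascc2* did so on a far smaller scale, with a change of -0.91. The ranking favours genes that share the order of the arrays, so this likeness is no separate result.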

How the data were processed

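RNA of 4 untreated and 4 RA-treated cultures was measured on 8 arrays, grouped by the labels. The authors deposited the output of Agilent Feature Extraction (version 10.7.3.1, build mm9), which holds for each spot a background-corrected intensity without normalization between arrays, raw and background intensities, and flags of 0 or 1 for spots that are well above background, saturated or outlying. They also deposited processed log2 values, whose distribution is the same on all arrays. The normalization behind those is not given in the sources used here.

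The log2 of the processed intensity minus each array's 75th percentile over 59305 non-control spots was used. Outlier spots (124 to 145 per array) were dropped and the spots of a probe averaged, leaving 55681 probes. Conditions were compared with limma (version 3.58.1, R version 4.3.3) and Benjamini-Hochberg adjustment over all probes. Every probe was tested, without a filter on dim ones. "At least" folds compare a mean with the lowest signal well above background where a condition was below it.

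A member is a non-control probe that carries its gene name, and relatives with several probes took the brightest over the 8 arrays. *Tfcp2l1*, *Tfap2c* and *Tfe3* were on the arrays as *Tcfcp2l1*, *Tcfap2c* and *Tcfe3*, and 1 listed gene, *Zscan4d*, was not found by name. Members, lists and motifs were chosen with earlier results of these data known. Named are all members, up to 3 called genes each way per list, and the 5 genes most like the members; 1 gene chosen by this rule is not reported here. Genes given as not called, *Kit*, and the lists in full were chosen once their values were known.

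Between 33629 and 37175 spots per array were well above background, none was saturated, and no arrays of a condition shared values. The number of arrays limits the precision. The labels call the samples biological replicates. Same-numbered arrays of the conditions deviated together (correlations of 0.186, 0.189, 0.104 and 0.151 for replicates 1 to 4 over probes well above background on all arrays, against at most 0.142, 0.037, 0.130 and 0.142 with another number, which for replicate 3 is the higher value), so the numbers were taken to pair cultures. The pairing comes from the labels' numbers and this check. In replicates 1 and 2 the same-numbered arrays also shared a slide, and in replicates 3 and 4 they did not. Pairing and slide were not separated in the check. Alternatives were quantile normalization, normexp, the authors' values, a filter on dim probes, the replicate and the slide as blocks, each slide alone, a test against 1.5-fold and leaving out each array.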

Additional observations from a re-analysis of the deposited data

Results flagged for a closer look

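Among the 18 groups of 4 arrays examined (9 genes in both conditions), 2 held an array far from the other 3, where chance gives 0.9. *Klf5* on untreated replicate 4 was at 4.67, above the next array at 4.27. *Zfp42* on untreated replicate 3 was at 6.34, below the next at 6.56. Both stay far above all RA-treated arrays of the same gene.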

How the results depend on the processing

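All 9 naive factors fell under each alternative that was run, none rose, and 9 were called lower under all of them but 3. Within slide 1, within slide 2 and in the test against 1.5-fold 8 were called, *Tbx3* being lost each time. With the replicate number, taken here to pair cultures, as a block, the changes were the same (-6.14 for *Nr0b1* to -1.04 for *Tbx3*), and 9 were called. The block changed no call of a naive factor, and over all lists together, those of cell type and RA response markers included, 43 genes were lower and 40 higher with and without it. The median log2 change of the 9, -5.17, was -4.22 with normexp and an offset of 50, -4.11 when quantile normalization followed, and -4.09 with the authors' processed values. The offset adds 50 to every signal by construction, and *Dppa3* and *Prdm14* had the dimmest signals of the 9 after RA. The normexp setting also started from the raw and background intensities in place of the processed intensity, and the offset was not varied. The cause of the smaller falls was not tested, either for normexp or for the authors' values. Leaving out each array in turn gave medians from -5.67 (without RA replicate 2) to -4.89 (without RA replicate 3), and changes of *Tbx3* from -1.16 to -0.90. Over the same lists the number called lower stayed between 42 and 43 and the number called higher between 36 and 40 under the other scalings, and 25 or 26 pairs of naive factors differed. Another choice of probe could not be run, because each gene has 1 probe. The arrays read 1 stretch of each transcript, so splice forms without it were not measured.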
